A study of Mus musculus with 9 samples.

Results

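The genes described here are 42 cell cycle and proliferation genes, a list of symbols set by known role, with no measured value in its rule. It holds 9 genes of the G1 engine, 6 inhibitors of cyclin-dependent kinases (CDKs), 10 genes of S phase and 17 genes of G2 and mitosis. They were read in RNAseq of the submandibular gland (SMG), a major salivary gland, from adult male mice on a C57BL/6 background (exact age not given in the sources used here). The 4 WT mice were untreated wildtype animals. The 5 DKO mice carried no functional *Hs3st3a1* and *Hs3st3b1*, 2 sulfotransferase genes that add 3-*O*-sulfate to heparan sulfate, in every cell of the body: *Hs3st3b1* through a knockout allele with a LacZ cassette, and *Hs3st3a1* on the same chromosome through a frameshift deletion made with zinc finger nucleases. The founder line of each DKO mouse was not given in the sources used here. Each library was 1 mouse, and the question was whether the adult gland transcribes these genes at another level without the enzymes. Of 48733 rows in the count table, 7 of them spike-ins that were left out, 13842 genes had enough reads to be tested. Of the 42 members, 41 were found by name in the normalized table and 40 were tested.

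A dividing cell turns on its cell cycle genes in waves. D-type cyclins with CDK4 and CDK6 start the passage through G1, cyclin E with CDK2 completes it, and the factor E2F1 then drives the genes that copy DNA. In G2 and mitosis the MuvB complex helps to turn on a later wave, which includes cyclin B, the mitotic kinases and the spindle checkpoint genes. The adult SMG renews slowly, mostly from duct and acinar cells that divide now and then, so the mitotic genes come from few cells in such a tissue. In a whole gland fewer dividing cells and less RNA per dividing cell cannot be told apart.

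The promoters of this late wave often carry a short element, the cell cycle genes homology region (CHR), to which MuvB binds, and those of the S phase wave carry E2F elements. Since the results below turn on how the late and the early wave differ, the 100 bases before the start of 4 G2/M genes and of 1 S phase gene are shown. They are RefSeq sequences of GRCm38.p6, 5′ to 3′ on the strand of the gene, which is the minus strand for all 5. Capitals mark the CHR letters (TTTGAA or TTCGAA, read on either strand) in the G2/M genes and the E2F letters (TTTNGCG, read on either strand) in the S phase gene.
*Cdk1*, chr10:69352913-69353012: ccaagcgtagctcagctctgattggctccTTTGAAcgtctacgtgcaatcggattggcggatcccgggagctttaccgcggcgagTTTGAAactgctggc
*Cdc20*, chr4:118437344-118437443: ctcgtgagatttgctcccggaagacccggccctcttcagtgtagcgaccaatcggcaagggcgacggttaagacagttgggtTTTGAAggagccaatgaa
*Top2a*, chr11:99024190-99024289: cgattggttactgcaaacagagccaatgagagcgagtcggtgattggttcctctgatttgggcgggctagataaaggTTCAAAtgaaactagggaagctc
*Mki67*, chr7:135716380-135716479: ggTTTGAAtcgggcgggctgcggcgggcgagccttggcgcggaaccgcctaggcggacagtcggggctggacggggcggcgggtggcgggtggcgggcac
*Mcm6*, chr1:128359706-128359805: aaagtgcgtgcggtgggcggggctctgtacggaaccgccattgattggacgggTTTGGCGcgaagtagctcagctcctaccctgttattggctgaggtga
The first base of the nearest CHR match lay 15 bases before the start in *Cdk1*, 18 in *Cdc20*, 23 in *Top2a* and 98 in *Mki67*. The 5 genes shown each hold a match in their 100 bases, which *Aurka*, *Bub1*, *Plk1* and *Pcna*, among others, do not. *Mcm2*, an S phase gene, holds the CHR letters 70 bases before its start. Promoter windows (250 bases before to 50 after a start) were found for 33 of the 42 members. The CHR letters were in the windows of 11 of 13 G2/M genes, against 21.7% of all 27025 genes with a window. They were in 2 of 9 S phase genes, 1 of 5 inhibitors and 0 of 6 genes of the G1 engine. *Birc5* and *Ccnb1* were the G2/M genes without a match. In the 250 bases before the start alone, the CHR letters were found in 7 of the 13 G2/M genes and in 19.6% of all genes with a window. The E2F letters were in 4 of 9 S phase genes (*Mcm3*, *Mcm5*, *Mcm6* and *Mcm7*) and 2 of 5 inhibitors (*Cdkn2a* and *Cdkn2c*). They were in 0 of 6 genes of the G1 engine and 1 of 13 G2/M genes (*Cdk1*), against 4.81% of all genes with a window. In the 250 bases before the start alone they were found in 2 of the 9 S phase genes and in 4.02% of all genes with a window. Both sets of letters were found in *Cdk1* and *Mcm7*, where they did not overlap. A match is a run of letters and was not tested as a binding site.

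The genotype was checked first. *Hs3st3a1* read at 3 to 14 counts in the WT libraries and at 0 in the DKO libraries, and *Hs3st3b1* at 67 to 216 and at 7 to 45. Total counts were 17053747 to 37870519 per library. Values are given as CPM, read counts divided by library size, with edgeR's TMM factors to scale the libraries. The scaling factors were 1.09 to 1.20 in WT and 0.774 to 1.11 in DKO, and without them the median of all genes stood at -0.28 on the log2 scale. The summed level of 11 acinar cell markers of this gland was 197994 to 294804 CPM in WT and 307923 to 547327 CPM in DKO, and those of 10 granular duct markers and 10 myoepithelial markers were lower in every DKO library than in every WT library, so markers of the gland's main cell types also moved with genotype. The part of these shifts in the results below was not tested.

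No member passed the test between DKO and WT. Of the 40 members tested, 0 had an adjusted p under 0.05 in edgeR's quasi-likelihood fit (Benjamini-Hochberg over all genes), against 87 of 13842 genes (0.629%). DESeq2 and limma-voom also called 0 members, where they called 4.45% and 1.07% of the genes they tested. A single member had an unadjusted p under 0.05 in edgeR, where 14.5% of all genes did, and a single member had WT and DKO values that did not overlap, where 6.0% of all genes did. Both were *E2f1*. For most members the fold change was small beside its error: 28 lay above 0 and 12 below, with a median of 0.082 on the log2 scale against 0.015 over all genes tested. By role the median log2 fold change was 0.0077 for the G1 engine, 0.098 for the inhibitors, 0.073 for S phase and 0.14 for G2/M. The plot of fold changes by role shows how the errors widen from the G1 to the G2/M genes.

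**Figure D1:**
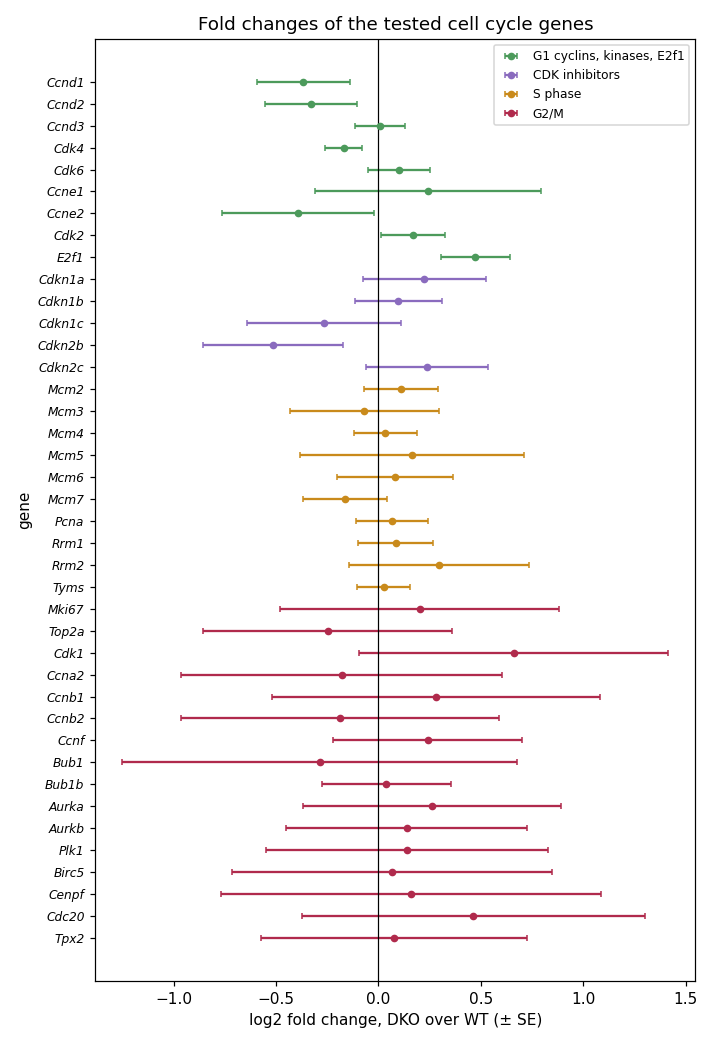
Log2 fold change of DKO over WT (x axis) for the 40 tested genes (y axis), coloured by role, with the standard error of edgeR's fit as bars (4 WT and 5 DKO libraries). Most bars cross 0, *E2f1* lies at 0.47 with an error of 0.17, and the G2/M genes have the widest bars.

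The 9 genes of the G1 engine had the smallest median spread between mice of the 4 roles. *Cdk4*, the kinase partner of the D-type cyclins, had 75.8, 72.4, 75.4 and 66.5 CPM in WT 1 to 4 and 68.3, 64.4, 57.9, 65.3 and 66.8 CPM in DKO 1 to 5. DKO 1 and DKO 5 lay above WT 4, the lowest WT library, and the other 3 DKO libraries lay below every WT library. DKO stood at -0.17 ± 0.091 against WT on the log2 scale (SE). The adjusted p was 0.435 by edgeR, and an exact two-sided permutation test of this gene alone gave p = 0.0397. That test was run on every member without adjustment for their number. It gave a p under 0.05 for 2 of the 40 tested members, *Cdk4* and *E2f1*. Of all members *Cdk4* had the highest level per length, 21.0 CPM per kb of exon on average over the 9 libraries. It shared 19.7% of its exon bases with *Tspan31*, and since the libraries were not stranded, reads of overlapping genes cannot be told apart.

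*E2f1*, which encodes the factor that turns on S phase genes (ENSMUSG00000027490, minus strand, chr2:154559407-154569892 in GENCODE M21 on GRCm38), had 2.99, 3.40, 2.78 and 3.13 CPM in WT and 3.57, 4.73, 3.80, 3.91 and 5.44 CPM in DKO. Every DKO library lay above every WT library, the nearest values being WT 2 and DKO 1, but this lack of overlap rested on the scaling. By library size alone, the 83 counts of 28208944 in DKO 3 made the lowest level of all. The log2 fold change was then 0.17 (SE 0.20) with an adjusted p of 0.572 by edgeR, where the median of all genes was -0.28. The WT mean was 3.08 ± 0.260 CPM (SD, n = 4) and the DKO mean 4.29 ± 0.776 CPM (SD, n = 5). The log2 fold change was 0.47 (SE 0.17) with an adjusted p of 0.215 by edgeR and 0.150 by DESeq2, so the difference did not hold after adjustment over all genes. The exact permutation test of this single gene gave p = 0.0159, where the smallest value it can give is 0.00794.

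The cyclins of G1 and their remaining kinases gave no difference beyond the spread between mice. *Ccnd1*, cyclin D1, had 13.1, 8.72, 8.86 and 15.5 CPM in WT and 6.53, 6.46, 10.8, 10.1 and 11.0 CPM in DKO, with DKO 1 and DKO 2 lowest and WT 4 highest. *Ccnd2*, cyclin D2, had 9.64, 11.6, 11.3 and 12.8 CPM in WT and 7.12, 11.7, 7.52, 13.0 and 5.51 CPM in DKO, where DKO 4 had the highest and DKO 5 the lowest value of all 9 libraries. On the log2 scale DKO stood at -0.37 ± 0.23 and -0.33 ± 0.23 against WT (SE), with adjusted p-values of 0.513 and 0.569 by edgeR. *Ccnd3*, cyclin D3, was level at 18.5 ± 1.82 CPM in WT and 18.6 ± 2.42 CPM in DKO. *Cdk6* and *Cdk2*, the kinases beside *Cdk4*, stood at 0.10 ± 0.15 and 0.17 ± 0.16 (log2, SE). *Ccnd1* shared 23.4% of its exon bases with a neighbouring gene and *Ccne2* 17.4% with *Ints8*.

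The E-type cyclins, which carry cells into S phase, varied more. *Ccne1* had 0.536, 0.535, 0.906 and 0.858 CPM in WT and 0.322, 0.576, 0.367, 0.830 and 2.47 CPM in DKO, so that DKO 5 stood well above the other 8 libraries. *Ccne2* had 3.08, 1.91, 2.94 and 4.29 CPM in WT and 0.996, 1.48, 2.43, 2.81 and 4.21 CPM in DKO. DKO 1 held its lowest value, and WT 4 and DKO 5 its highest. The adjusted p-values were 0.897 and 0.707 (edgeR).

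Of the 6 CDK inhibitors, 5 were tested, with adjusted p-values of 0.558 to 0.893 (edgeR). *Cdkn1b*, which encodes p27 and is the inhibitor of many resting cells, was by far the most abundant of them at 6.98 CPM per kb. Its values were 31.2, 30.8, 17.1 and 43.3 CPM in WT and 30.3, 38.2, 29.1, 28.9 and 37.1 CPM in DKO, where the WT group held both the lowest and the highest library. *Cdkn1a*, which encodes p21 and is a target of p53, had 3.66, 3.98, 2.32 and 3.95 CPM in WT and 5.74, 5.10, 2.61, 4.47 and 1.96 CPM in DKO. The DKO libraries fell on both sides of the WT range, with DKO 1, DKO 2 and DKO 4 above it and DKO 5 below it.

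*Cdkn2c*, which encodes p18, had 4.11, 5.47, 3.54 and 3.43 CPM in WT and 6.12, 5.92, 2.11, 3.60 and 6.67 CPM in DKO, and DKO 3 held the lowest value. *Cdkn2b*, which encodes p15, had 0.536, 0.459, 0.597 and 0.601 CPM in WT and 0.234, 0.247, 0.412, 0.514 and 0.580 CPM in DKO, at -0.52 ± 0.34 on the log2 scale (SE, DKO over WT) with an adjusted p of 0.558 by edgeR. DKO 1 and DKO 2 lay lowest, and DKO 5 within the WT range. *Cdkn1c*, which encodes p57, was low at 0.490 ± 0.143 CPM in WT and 0.398 ± 0.168 CPM in DKO, and 30.7% of its exon bases were shared with another gene. *Cdkn2a*, the senescence gene that encodes p16 and p19Arf, had 0 counts in all 9 libraries, which allows up to 3 counts in each.

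The 10 S phase genes gave no difference between the genotypes that passed the test, and 1 DKO library stood above the rest. Their summed level was 119, 114, 125 and 138 CPM in WT and 101, 113, 109, 136 and 192 CPM in DKO. DKO 5 held the highest sum, DKO 4 lay within the WT range, and DKO 1, DKO 2 and DKO 3 lay just under it. In DKO 5, 9 of the 10 genes lay above every WT library, where 27.2% of all genes tested did. In the fit, 8 lay above 0 and 2 below, with adjusted p-values of 0.789 to 0.959 (edgeR).

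Among the 6 subunits of the MCM helicase, which unwinds DNA ahead of the fork, *Mcm5* varied most. It had 3.97, 2.79, 5.13 and 7.34 CPM in WT and 1.55, 3.50, 2.29, 6.21 and 14.2 CPM in DKO, with DKO 1 lowest and DKO 5 highest. *Mcm2*, another subunit, had 9.55, 12.2, 14.5 and 14.2 CPM in WT and 10.9, 10.7, 15.2, 13.6 and 18.1 CPM in DKO. The groups overlapped, with DKO 3 and DKO 5 above the WT range. The log2 fold changes of *Mcm2* to *Mcm7* ran from -0.16 (*Mcm7*, standard error 0.20) to 0.16 (*Mcm5*, standard error 0.55). *Mcm3* was at -0.069, *Mcm4* at 0.034, *Mcm6* at 0.080 and *Mcm2* at 0.11.

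*Rrm2*, the subunit of ribonucleotide reductase whose level follows S phase, had 8.79, 8.03, 11.2 and 17.7 CPM in WT and 5.89, 8.93, 8.94, 14.5 and 32.9 CPM in DKO. *Rrm1*, its steadier partner, had 15.4, 13.8, 19.5 and 17.5 CPM in WT and 13.8, 14.6, 15.5, 18.6 and 25.6 CPM in DKO. Both were highest in DKO 5, *Rrm2* by the wider margin. *Pcna*, the sliding clamp of the DNA polymerases and the most abundant S phase member at 7.34 CPM per kb, had 20.3, 15.1, 16.5 and 16.7 CPM in WT and 18.1, 16.6, 12.5, 17.7 and 25.1 CPM in DKO. *Tyms*, which makes thymidylate, was the exception. It had 31.6, 36.8, 25.4 and 25.7 CPM in WT and 26.2, 29.7, 34.1, 30.3 and 31.6 CPM in DKO, with DKO 3 and not DKO 5 highest among DKO and the highest value of all in WT 2.

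**Figure D2:**
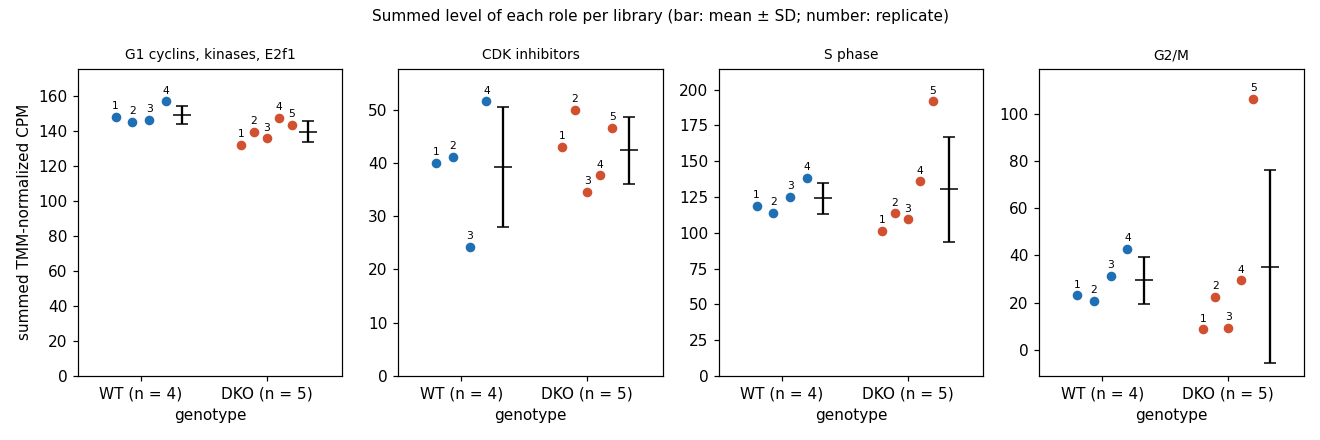
Summed TMM-normalized CPM (y axis) of the 9 G1 genes, 6 inhibitors, 10 S phase genes and 17 G2/M genes in each WT and DKO library (x axis), numbered by replicate, with the mean and SD as bars. The G2/M sum in DKO 5 was 106.6 CPM, while the other DKO libraries lay between 8.73 and 29.5 CPM and the WT libraries between 20.8 and 42.8 CPM. The G2/M bar of the DKO group reaches below 0 because its SD exceeds its mean.

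The 17 genes of G2 and mitosis differed far more between DKO mice than between genotypes. Their summed level was 23.0, 20.8, 31.5 and 42.8 CPM in WT and 8.73, 22.5, 9.21, 29.5 and 106.6 CPM in DKO. DKO 1 and DKO 3 lay below every WT library, DKO 5 above every WT library, and DKO 2 and DKO 4 within their range. The highest DKO sum was 12.2 times the lowest, against 2.06 times in WT. All 16 tested genes were above every WT library in DKO 5, where 27.2% of all genes tested were. In DKO 1, 15 of the 16 were below every WT library, against 23.8% of all genes, and in DKO 3, 14 of the 16 were, against 31.0%. These libraries were singled out after their values were seen, so the counts are a description with no test.

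*Cdk1*, the kinase that drives entry into mitosis (ENSMUSG00000019942, minus strand, chr10:69335146-69352938 in GENCODE M21 on GRCm38), had 3.08, 2.45, 3.78 and 6.74 CPM in WT and 1.05, 3.04, 1.56, 4.82 and 22.5 CPM in DKO. DKO 5 was 21.3 times DKO 1. Both DKO 1 and DKO 3 lay below the WT range, and DKO 2 and DKO 4 lay within it. The log2 fold change was 0.66, the largest of the members, with a standard error of 0.75 (adjusted p = 0.762, edgeR). *Mki67*, the gene of the proliferation antigen Ki-67, had 0.446, 0.994, 0.751 and 1.97 CPM in WT and 0.293, 0.699, 0.458, 1.15 and 3.77 CPM in DKO. DKO 5 again stood above all others, and the remaining 8 libraries overlapped. DKO stood at 0.20 ± 0.68 against WT on the log2 scale (SE), and edgeR gave an adjusted p of 0.933.

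The cyclins of this wave were lowest in DKO 1 or DKO 3 and highest in DKO 5. *Ccnb1*, cyclin B1 and the partner of CDK1, had 1.74, 1.03, 2.12 and 2.62 CPM in WT and 0.205, 1.23, 0.412, 2.06 and 8.27 CPM in DKO. *Ccnb2*, cyclin B2, had 1.25, 1.45, 1.75 and 2.92 CPM in WT and 0.146, 1.28, 0.183, 1.54 and 5.51 CPM in DKO. Both were under every WT library in DKO 1 and DKO 3 and over every WT library in DKO 5. *Ccna2*, cyclin A2, had 0.625, 0.497, 0.950 and 1.24 CPM in WT and 0.0586, 0.658, 0.183, 0.395 and 2.83 CPM in DKO, with a wide gap between DKO 5 and the next DKO library. *Ccnf*, cyclin F, was even in WT at 1.03, 0.841, 0.862 and 0.773 CPM and had 0.586, 1.07, 0.367, 0.870 and 2.54 CPM in DKO. Its WT libraries were the closest together of any G2/M gene, and DKO 5 was still above them. The log2 fold changes of these 4 cyclins were 0.28, -0.19, -0.18 and 0.24 in that order, each smaller than its standard error.

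Of the mitotic kinases, *Aurka*, which builds the spindle poles, had 2.46, 2.06, 2.497 and 3.05 CPM in WT and 0.820, 2.22, 0.779, 2.13 and 9.87 CPM in DKO. *Aurkb*, the kinase of the chromosomal passenger complex, had 1.56, 1.11, 1.15 and 1.89 CPM in WT and 0.674, 0.905, 0.275, 2.17 and 4.13 CPM in DKO. *Plk1*, the polo kinase of mitotic entry, had 1.52, 1.15, 2.83 and 2.53 CPM in WT and 0.264, 1.65, 0.687, 2.33 and 6.82 CPM in DKO. DKO 1 or DKO 3 was lowest and DKO 5 highest for each of the 3 kinases. *Birc5*, which encodes survivin of the passenger complex, had 2.01, 1.38, 2.47 and 2.79 CPM in WT and 0.381, 1.15, 0.275, 1.78 and 8.56 CPM in DKO. Survivin thus spanned the same libraries as *Aurkb*, with the bottom and the top both in DKO.

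Among checkpoint and spindle genes, *Cdc20*, the activator of the anaphase-promoting complex, had 0.937, 0.765, 1.24 and 1.97 CPM in WT and 0.381, 1.15, 0.0916, 0.909 and 6.60 CPM in DKO. *Tpx2*, a spindle assembly factor that activates Aurora A, had 1.43, 1.03, 1.94 and 1.63 CPM in WT and 0.557, 1.03, 0.275, 1.38 and 5.30 CPM in DKO. For both, DKO 3 was the lowest and DKO 5 the highest of all 9 libraries. *Bub1*, a checkpoint kinase, had 0.402, 0.459, 1.22 and 1.33 CPM in WT and 0, 0.452, 0, 0.830 and 2.68 CPM in DKO, where the zeros allow up to 3 counts, or 0.0877 CPM in DKO 1 and 0.137 CPM in DKO 3. *Cenpf*, a kinetochore protein, had 0.179, 0.650, 0.641 and 0.944 CPM in WT and 0.117, 0.247, 0, 0.712 and 2.76 CPM in DKO and was the lowest tested member per length, at 0.0450 CPM per kb. Both were highest in DKO 5, and DKO 3 had no read of either.

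*Top2a*, the topoisomerase that untangles sister chromatids, had 1.87, 2.37, 4.37 and 5.58 CPM in WT and 0.586, 2.26, 1.01, 4.03 and 7.69 CPM in DKO. DKO 5 lay above the WT range, but by less than for *Cdk1*. *Foxm1*, the transcription factor of the G2/M wave, was too low to be tested, with 3, 4, 16 and 7 counts in WT and 0, 6, 1, 17 and 20 counts in DKO. It was highest in DKO 5 and lowest in DKO 1 and DKO 3. *Bub1b*, which encodes the checkpoint protein BUBR1, departed from the rest. It had 2.37, 2.37, 2.56 and 4.55 CPM in WT and 2.61, 3.21, 2.61, 1.70 and 5.30 CPM in DKO, so that DKO 1, DKO 2 and DKO 3 lay within the WT range, and DKO 4 was the lowest of all libraries. The plot of each gene by library shows these columns.

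**Figure D3:**
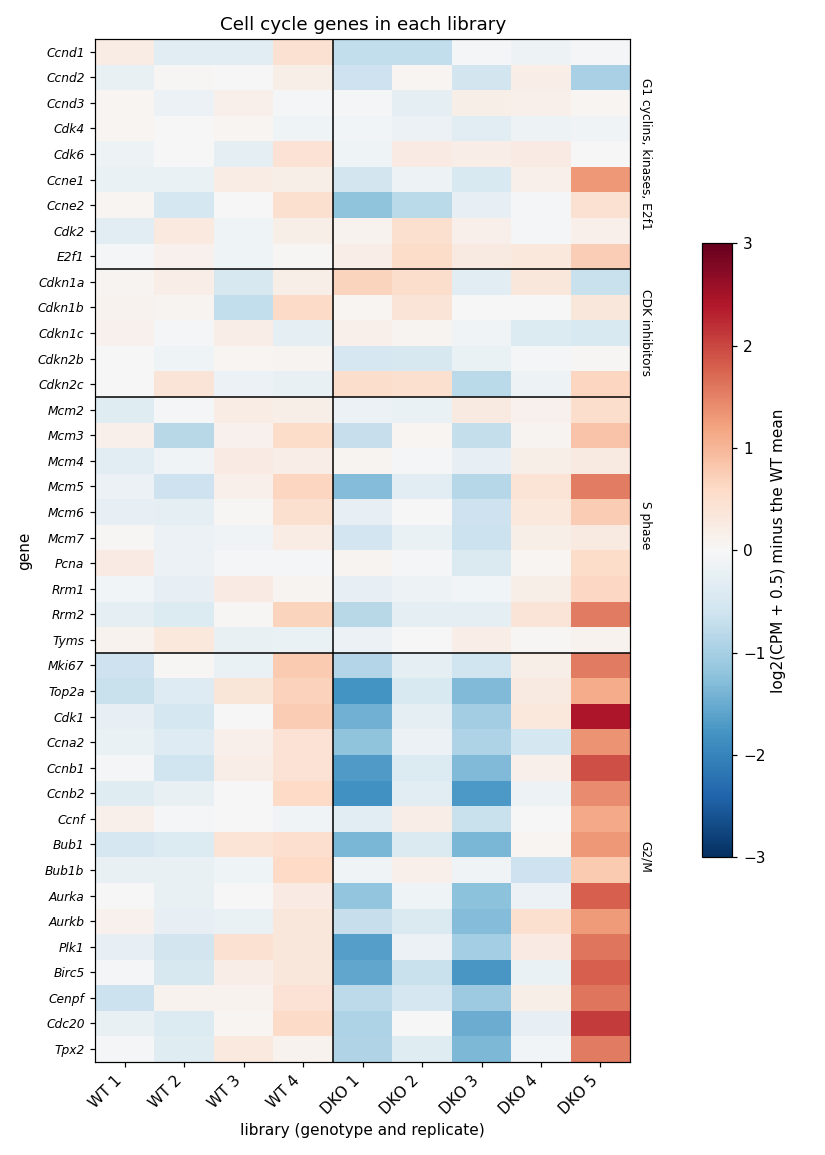
Each tested member (rows, by role) in each WT and DKO library (columns), as log2(CPM + 0.5) minus the mean of the 4 WT libraries. In the G2/M block DKO 5 is red in all 16 rows and DKO 1 and DKO 3 are blue in most, while no column of the G1 block is of 1 colour. Of the inhibitors, all 5 lie below the WT mean in DKO 3 and the other DKO columns are mixed.

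The spread was measured as the biological coefficient of variation (BCV) between mice of the same genotype. Its median was 0.716 over the 16 G2/M genes, where the trend for genes of their abundance was 0.315, and all 16 lay above that trend, against 25.7% of all genes tested. It was 0.213 for S phase against a trend of 0.203, 0.178 for the G1 engine against 0.205 and 0.292 for the inhibitors against 0.256. The G2/M spread came mainly from DKO: the median SD of log2 CPM was 1.15 in DKO and 0.42 in WT for these genes, against 0.25 and 0.20 over all genes. A difference between the spreads of the genotypes was not tested.

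**Figure D4:**
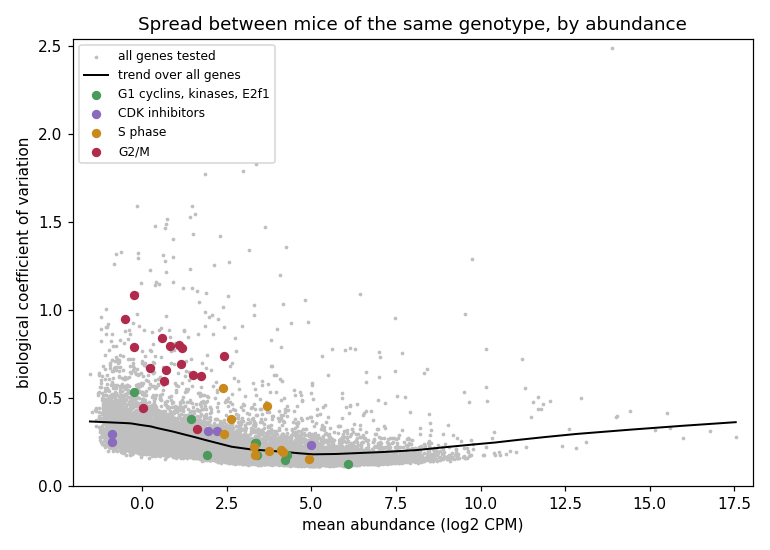
Biological coefficient of variation (y axis) against mean abundance in log2 CPM (x axis) for the 13842 genes tested (grey), with the trend as a line and the members coloured by role. All 16 G2/M genes lie above the line, with a median of 0.716, and most G1, inhibitor and S phase genes lie closer to it.

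The ratio of the late to the early wave does not depend on the scaling of the libraries. For every 100 reads on the S phase genes there were 19.4, 18.3, 25.2 and 30.9 reads on the G2/M genes in WT, and 8.64, 19.8, 8.41, 21.7 and 55.6 in DKO. DKO 1 and DKO 3 lay under every WT library and DKO 5 above every one, as in the summed levels. The 3 libraries differed in depth as well. DKO 5 was the shallowest library with 17053747 counts, and DKO 1 and DKO 3 had 34683690 and 28208944. The part of depth in this order was not tested.

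Markers of other cell types were set beside the G2/M genes for the same libraries. The summed level of 7 red cell markers, which include the globins, was 27.2, 15.4, 25.8 and 37.8 CPM in WT and 14.8, 18.4, 23.3, 23.0 and 39.8 CPM in DKO. It was highest in DKO 5 and lowest in DKO 1, and 6 of the 6 tested markers were highest among DKO in DKO 5. By library size alone the red cell sum was highest in WT 4, at 41.1 CPM. DKO 5 then had 32.2 CPM, within the 17.4 to 41.1 CPM of WT. The 22 lymphocyte markers summed to 10.1 to 17.6 CPM in WT and 6.75 to 17.7 CPM in DKO, with 9.28 CPM in DKO 5. *Pax5*, which defines B cells, had 0 counts in all 9 libraries, and 7 of the 22 lymphocyte markers had enough reads to be tested. Fibroblast markers summed to 160 CPM in DKO 5, the lowest of the 9 libraries, against 289 to 453 CPM in the other DKO libraries and 368 to 610 CPM in WT. The part of other cell types in the G2/M order was not tested. In DKO 5 the lymphocyte sum lay under the WT range. The 10 plasma cell markers, of which 5 were tested, summed to 395 to 579 CPM in WT and 606, 393, 676, 521 and 678 CPM in DKO. DKO 1, DKO 3 and DKO 5 thus lay above the WT range. By library size alone the plasma cell sums of DKO 1, DKO 3 and DKO 5 were 597, 524 and 548 CPM, within the 429 to 692 CPM of WT.

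The direction of the G2/M genes depended on DKO 5 and on the method, and their sign also on the scaling. Their median log2 fold change of 0.14 became -0.88 without DKO 5, with 16 of the 16 genes then below 0, and 0.39 without DKO 1. Even without DKO 5 no member had an adjusted p under 0.05, the lowest of the G2/M genes being 0.321 (edgeR), and *Birc5* and *Ccna2* were the 2 with an unadjusted p under 0.05. With all 9 libraries kept, their median was -0.17 by library size alone, with 14 of 16 below 0. The median of all genes was -0.28 under that setting, lower than that of the G2/M genes. With limma-voom and sample quality weights the G2/M median was -0.67, with 15 of 16 below 0, against 0.0068 over all genes. The S phase median moved from 0.073 to -0.11 without DKO 5.

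Per kb of exon the members spanned a wide range of levels. The highest were *Cdk4* at 21.0, *Pcna* at 7.34, *Cdkn1b* at 6.98, *Tyms* at 4.95 and *Rrm2* at 4.69 CPM per kb. *Pcna* and *Cdkn1b* did not differ beyond their spread in WT, at 7.15 ± 0.929 and 6.72 ± 2.34 CPM per kb (SD, n = 4), and neither did *Tyms* and *Rrm2*, at 4.90 ± 0.894 and 4.13 ± 1.58. Over the 9 libraries the most abundant G2/M genes were *Ccnb2* at 1.16, *Aurka* at 1.14 and *Cdk1* at 1.10 CPM per kb. In WT alone they were *Ccnb2* at 1.20, *Aurka* at 0.994, *Plk1* at 0.912 and *Cdk1* at 0.813, and in DKO, which holds DKO 5, *Cdk1* at 1.34, *Aurka* at 1.25 and *Ccnb2* at 1.13. The lowest over the 9 libraries were *Mki67* at 0.116, *Foxm1* at 0.0648 and *Cenpf* at 0.0450. Ki-67 is a common marker of dividing cells in tissue sections, and its gene was among the lowest members per length in these glands.

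**Figure D5:**
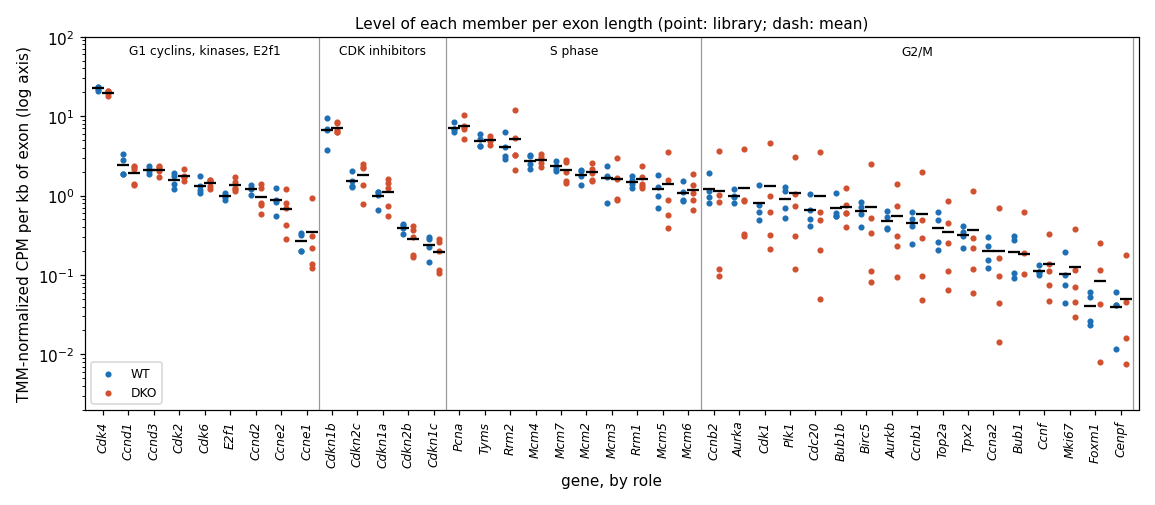
TMM-normalized CPM per kb of exon (y axis, log scale) for the members with reads (x axis, by role and falling mean), with each library as a point and each group's mean as a dash. Libraries at 0 are not drawn. *Cdk4* is highest at 21.0 CPM per kb, and the DKO points spread most among the G2/M genes.

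Wider lists of cell cycle genes were read in the same fit. Of all genes tested, 0.629% passed edgeR's test and 14.5% had an unadjusted p under 0.05, while DESeq2 called 4.45% and limma-voom 1.07%. Of 55 other S phase genes, 51 were tested and 0 passed the test, with 2 at an unadjusted p under 0.05, and DESeq2 and limma-voom called 0. *Pold2*, a subunit of polymerase delta, was at -0.38 (SE 0.15) and *Rpa3*, of the single-strand binding complex, at -0.40 (SE 0.17) on the log2 scale. Of 82 other G2/M genes, 69 were tested and 0 passed, with 4 at an unadjusted p under 0.05 and 0 calls by DESeq2 and limma-voom. Their median log2 fold change was -0.11, with 43 below 0 and 26 above, where 12 of the 16 members lay above 0. The smallest p-values were those of *Pttg1*, which encodes securin, at -0.33 (SE 0.11) and *Ncapd2*, of condensin, at 0.44 (SE 0.16). Of the 69, 58 (84.1%) were highest among DKO in DKO 5, where 18.6% of all genes were, and 57 (82.6%) were lowest in DKO 1 or DKO 3, where 43.4% of all genes were. The CHR letters were in the promoter windows of 49 of the 66 of these genes with an entry (74.2%). The order of the DKO libraries was not particular to the G2/M list. Among the 51 other S phase genes tested, 34 (66.7%) were highest among DKO in DKO 5 and 40 (78.4%) were lowest in DKO 1 or DKO 3.

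Among 40 regulators of the cycle outside the members, 38 were tested and 1 passed, where 0.629% of all genes did. *Fbxw7*, which marks cyclin E and JUN for destruction, had 14.1, 7.99, 16.4 and 12.3 CPM in WT and 6.12, 5.80, 4.40, 6.80 and 5.80 CPM in DKO. Every DKO library lay below every WT library. It fell in DKO, at -1.13 ± 0.20 on the log2 scale (SE, DKO over WT) with an adjusted p of 0.0478 by edgeR, and over the alternative settings its adjusted p ran from 6.54e-05 to 0.198. The call was lost without WT 1, WT 3, WT 4, DKO 1, DKO 2, DKO 3 or DKO 5 (0.0522 to 0.198), with the replicate block (0.0985) and with scaling without the 20 most abundant genes (0.0508), and the direction stayed. The RNA of *Ccne1* and *Ccne2* is described above, and the cyclin E protein, which is what is marked for destruction, was not measured. Of 29 targets of p53, 29 were tested and 0 passed, with 0 calls by DESeq2 and limma-voom. An unadjusted p under 0.05 was found for 1 of the 29, where 14.5% of all genes had one. *Fas*, a death receptor, was at -0.77 (SE 0.25) and *Sesn2*, a stress sensor, at 0.52 (SE 0.26) on the log2 scale.

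Of 25 immediate early genes, which respond to growth factors within minutes, 21 were tested and 0 passed edgeR's test. An unadjusted p under 0.05 was found for 3 of the 21, where 14.5% of all genes had one. DESeq2 called 2, against 4.45% of all genes, and limma-voom 0. In 2 of the 21 the groups did not overlap, against 6.0% of all genes. *Jun*, of the AP-1 factor, had 15.8, 11.9, 12.6 and 11.7 CPM in WT and 8.26, 10.1, 6.60, 9.21 and 6.53 CPM in DKO. Its groups did not overlap, and DKO stood at -0.67 ± 0.16 on the log2 scale (SE, DKO over WT) with an adjusted p of 0.0665 by edgeR. *Nr4a1*, an orphan nuclear receptor, had 26.8, 36.4, 39.8 and 40.7 CPM in WT and 48.1, 59.3, 63.8, 45.5 and 56.7 CPM in DKO. Here every DKO library lay above every WT library, at 0.60 ± 0.15 on the log2 scale (SE, DKO over WT) with an adjusted p of 0.0702 by edgeR. *Jun* and *Nr4a1* were the 2 genes called by DESeq2, with adjusted p-values of 0.00639 and 0.00641. With edgeR *Jun* was also called by library size alone (0.0393), with no filter on low counts (0.0376) and without DKO 4 (0.0487), and *Nr4a1* without DKO 4 (0.0389). Over all alternatives the adjusted p ran to 0.243 for *Jun* and 0.232 for *Nr4a1*.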

How the data were processed

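RNAseq of male SMGs (4 WT, 5 DKO) was analysed, with 1 unstranded Nextera XT library of total RNA per mouse, sequenced on a HiSeq2500. The authors deposited raw read counts per Ensembl gene, in 48733 rows of which 7 were spike-ins and were left out. They also deposited the same counts after a filter on low rows, and TMM-normalized values of that filtered table (17562 rows, here named signal). The submitters' processing notes name STAR 2.5.2a, DESeq2, edgeR and limma and the builds GRCm38, mm10 and GRCh38. The counting tool and annotation are not given in the sources used here. Of the 158058 deposited signal values, 100% gave whole reads (tolerance 0.01), and the same test on these reads called 87 genes, as on the unfiltered counts.

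The unfiltered counts were tested with edgeR 4.0.16 in R 4.3.3: TMM factors, filterByExpr (minimum count 10, minimum total 15), glmQLFit and glmQLFTest with the legacy method and a genotype term only, and Benjamini-Hochberg adjustment over 13842 genes with a threshold of 0.05. The paper's methods name DESeq2, which was run as an alternative (1.42.0), beside limma-voom with sample quality weights (limma 3.58.1), another scaling, other filters, the replicate number as a block and each library left out. Reads recovered from the signal table were added after seeing the data. The fits were tested on simulated counts with known changes. Single genes were also tested by exact two-sided permutation of the genotype labels on log2(CPM + 0.5). Summaries were made in Python 3.11.15 with pandas 2.3.3 and numpy 2.4.6, and plots with matplotlib 3.10.9. Exon lengths, shared exons and gene positions came from GENCODE M21 (GRCm38), by Ensembl identifier. The RefSeq promoter table of GRCm38.p6 held windows for 33 of the 42 members.

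Counts per library were 17053747 to 37870519, and limits for 0 reads cover counting error only. Every member is named. Of each of the wider S phase, G2/M, regulator, p53 and immediate early lists, genes past the threshold are named, or otherwise the 2 with the smallest p, and of cell type markers those needed to say which are at 0. No measured value is in the rule for the members, but the members and lists were proposed with earlier results of these data known, so no list was tested as a set, and counts and medians are given beside those of all genes. The paper describes the comparison as one of DKO with WT littermates, but nothing says which mice shared a litter or day. The sample labels carry a number for each mouse, whose meaning is not given. The main fit held no term for litter or for these numbers, and the p-values measure the spread between these mice.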

Additional observations from a re-analysis of the deposited data

Results flagged for a closer look

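Within each genotype, the highest and lowest library of each member and of each summed role were set against Dixon's critical value, in 92 groups of 4 or 5 libraries. In 13 of them 1 library stood apart. About 1 in 20, or 4.6, would be the number for values with a normal spread on the CPM scale. The CPM were not put on a log scale for this, and whether these libraries stand apart on that scale was not tested. The genes are not independent of each other, since they were read in the same libraries. In 12 of the 13 the library was DKO 5.

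The summed G2/M level in DKO 5 was 106.6 CPM, far above the 8.73 to 29.5 CPM of the other DKO libraries. Among single genes, *Cdk1* stood at 22.49 CPM in DKO 5 against 1.05 to 4.82 CPM in the other DKO libraries, *Aurka* at 9.865 against 0.779 to 2.22 CPM and *Cdc20* at 6.601 against 0.0916 to 1.15 CPM. *Birc5* was at 8.559 CPM, *Ccnb1* at 8.269 CPM, *Ccnb2* at 5.513 CPM, *Tpx2* at 5.295 CPM and *Mki67* at 3.772 CPM in DKO 5. *Ccna2* was at 2.829 CPM, *Cenpf* at 2.756 CPM and *Ccne1*, the single G1 gene among them, at 2.466 CPM in DKO 5.

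*Bub1b* in WT 4, at 4.55 CPM, was the single value that stood apart outside DKO 5, with the other WT libraries at 2.37 to 2.56 CPM. WT 4 also had the highest G2/M sum of the WT libraries, 42.8 CPM.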

How the results depend on the processing

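No member was called under any of the 19 alternatives, and *E2f1* kept its direction in all of them, with adjusted p-values of 0.150 to 0.572. Of the 40 members, 8 never changed sign and 32 did in at least 1 alternative. The number of genes called, 87, was 616 with DESeq2, 357 with library size only, 148 with limma-voom, 347 with no filter on low counts, 5 with scaling without the 20 most abundant genes, and 0 to 441 with 1 library left out (0 without WT 1, WT 3, WT 4, DKO 2 or DKO 5, 1 without DKO 1, 2 without DKO 3, 306 without WT 2 and 441 without DKO 4). With library size only, the median was -0.28 over all genes, -0.29 for the G1 engine, -0.19 for the inhibitors, -0.22 for S phase (10 of 10 lower) and -0.17 for G2/M (14 of 16 lower), and the members that turned lower were *Ccnd3* -0.29, *Cdk6* -0.18, *Ccne1* -0.072, *Cdk2* -0.13, *Cdkn1a* -0.024, *Cdkn1b* -0.19, *Cdkn2c* -0.050, *Mcm2* -0.20, *Mcm4* -0.25, *Mcm5* -0.14, *Mcm6* -0.20, *Pcna* -0.22, *Rrm1* -0.22, *Rrm2* -0.025, *Tyms* -0.27, *Mki67* -0.11, *Ccnb1* -0.054, *Ccnf* -0.066, *Bub1b* -0.28, *Aurka* -0.079, *Aurkb* -0.14, *Plk1* -0.19, *Birc5* -0.27, *Cenpf* -0.15 and *Tpx2* -0.25. With limma-voom and sample quality weights the median was -0.13 for G1, -0.015 for S phase and -0.67 for G2/M (15 of 16 lower), and the members that turned were *Ccnd3* -0.026, *Ccne1* -0.21, *Mcm2* -0.0085, *Mcm5* -0.38, *Mcm6* -0.022, *Rrm2* -0.092, *Mki67* -0.42, *Cdk1* -0.36, *Ccnb1* -0.91, *Bub1b* -0.16, *Aurka* -0.46, *Aurkb* -0.30, *Plk1* -0.74, *Birc5* -1.001, *Cenpf* -0.96, *Cdc20* -0.60 and *Tpx2* -0.55. With no filter on low counts the turned member was *Ccnd3* -0.0041. The cause of these turns was not tested.

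With the replicate number as a block, 0 genes were called, 2024 genes and 9 of the 40 members (7 of the 16 G2/M genes) had an unadjusted p under 0.05, the G2/M median was -0.99 with 16 of 16 lower and the G1 median was -0.18. DKO 5 has no WT library of its number and so adds nothing to that fit. The members that turned were *Ccnd3* -0.0076, *Ccne1* -0.47, *Mcm4* -0.014, *Mcm5* -0.59, *Mcm6* -0.15, *Pcna* -0.086, *Rrm1* -0.078, *Rrm2* -0.26, *Mki67* -0.66, *Cdk1* -0.71, *Ccnb1* -1.18, *Ccnf* -0.34, *Bub1b* -0.19, *Aurka* -0.87, *Aurkb* -0.72, *Plk1* -0.90, *Birc5* -1.44, *Cenpf* -1.33, *Cdc20* -1.08 and *Tpx2* -0.98. The numbers were not taken to pair the mice. The deviations of same-numbered libraries correlated at 0.150, 0.298, 0.0739 and 0.0137. WT 1 and WT 2 each correlated most with the DKO library of their number, while WT 3 and WT 4 each correlated more with DKO 5. Whether the numbers pair some of the mice is not known.

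With each of the 9 libraries left out in turn, the medians ran from -0.18 to 0.070 for the G1 engine, -0.10 to 0.16 for the inhibitors, -0.11 to 0.13 for S phase and -0.88 to 0.39 for G2/M. The single genes whose direction turned ran as follows: *Ccnd3* -0.050 to 0.079, *Ccne1* -0.46 to 0.48, *Cdkn1b* -0.10 to 0.31, *Mcm2* -0.0048 to 0.19, *Mcm3* -0.38 to 0.15, *Mcm4* -0.067 to 0.12, *Mcm5* -0.51 to 0.44, *Mcm6* -0.14 to 0.28, *Pcna* -0.076 to 0.17, *Rrm1* -0.081 to 0.18, *Rrm2* -0.26 to 0.58, *Tyms* -0.047 to 0.14, *Mki67* -0.68 to 0.70, *Top2a* -0.86 to 0.047, *Cdk1* -0.62 to 1.02, *Ccna2* -1.39 to 0.17, *Ccnb1* -0.95 to 0.60, *Ccnb2* -1.23 to 0.14, *Ccnf* -0.27 to 0.46, *Bub1* -1.45 to 0.088, *Bub1b* -0.22 to 0.32, *Aurka* -0.76 to 0.52, *Aurkb* -0.49 to 0.41, *Plk1* -0.73 to 0.45, *Birc5* -1.27 to 0.36, *Cenpf* -1.16 to 0.48, *Cdc20* -0.95 to 0.78 and *Tpx2* -0.90 to 0.34. *Ccnd1* was at -0.19 without WT 4 and *Ccnd2* at -0.21 without DKO 5. Depth limits what a 0 shows to 3 counts per library.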
